A study of Mus musculus with 12 samples.

Results

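The 5 mouse miRNA precursors mmu-mir-3473a, mmu-mir-3473e, mmu-mir-3473f, mmu-mir-1195 and mmu-mir-690, written below without the species prefix, carry sequence of the B1 and B2 repeats. They were taken by name from the precursors on which the deposited small RNA reads had been placed, and are 5 of 997 annotated precursors, or of 1532 with the 535 that the submitters predicted. The 5 were chosen by their levels in these libraries, which were already known to be higher in the treated group, so that difference is described here without a test. B1 and B2 are short interspersed repeats of the mouse genome. B1 derives from the RNA of the signal recognition particle and B2 from a transfer RNA. Both have an RNA polymerase III promoter of their own, and many copies also lie inside introns and transcribed ends of other genes, so a short read of repeat sequence can come from many places besides the miRNA gene it is assigned to.

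All 12 libraries are labelled as retina of db/db mice, a strain with a defective leptin receptor and with obesity and diabetes. The 6 libraries called model are read as untreated db/db mice, and the 6 others come from db/db mice that received Keluoxin, a Chinese herbal capsule. The strain label reads C57BL/KsJ-db/db in the first sample, and its number rises by 1 from sample to sample, which was not interpreted. The sources used here do not give age, sex, dose, duration or vehicle, and no non-diabetic mice were analysed here. Whether each library is a separate animal is not stated, so a test measures only the spread between libraries, some of which can be technical. Unlike the tissue label, the extraction protocol names an exosome pellet as the source of RNA. All 7 retinal marker miRNAs were detected, with a summed level of 469465 to 493233 RPM in model (reads of a library scaled to a common total of counted reads) and 371301 to 475461 in Keluoxin.

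The libraries held 1933375 reads (Keluoxin replicate 5) to 7892147 reads (model replicate 3). Some library-wide measures moved with the groups, and others overlapped between them. Reads with a base that differs from the precursor, outside the 5 precursors, made up 39.2% to 43.3% in model and 44.0% to 50.7% in Keluoxin. Reads matching ribosomal RNA made up 0.0475% to 0.297% in model, where model replicate 1 was the highest, and 0.212% to 0.462% in Keluoxin, whereas reads matching mitochondrial transfer RNA made up 0.706% to 1.09% and 0.231% to 0.703%. Reads of 15 to 17 nt outside the 5 precursors made up 1.94% to 4.08% in model, where model replicate 1 was again the highest, and 1.98% to 4.79% in Keluoxin. The 3 erythroid markers summed to 81.8 to 112 RPM in model and 88.4 to 771 in Keluoxin, the 4 muscle markers to 305 to 405 and 323 to 2485, and the 1 liver marker stood at 1.21 to 4.94 and 3.10 to 40.3. The 1 endothelial marker stood at 1520 to 1870 in model and 1084 to 1574 in Keluoxin, and the 3 leukocyte markers summed to 60.7 to 86.3 and 64.9 to 100. The part of these measures in the results below was not tested.

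The annotated mature miRNAs of the 5 precursors show how they relate. They are given as in RefSeq (GRCm38.p6), with the seed, bases 2 to 8, in capitals.
miR-3473a: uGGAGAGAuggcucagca
miR-3473e: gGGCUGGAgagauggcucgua
miR-3473f: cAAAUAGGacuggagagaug
miR-1195: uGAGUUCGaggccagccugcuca
miR-690: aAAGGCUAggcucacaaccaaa
No seed is shared within the 5. The seed of miR-3473e, GGCUGGA, is also that of miR-3473b, a sixth relative outside the 5.

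The precursors, as the deposited tables hold them, show the common repeat. In the first 4, the capitals mark the longest stretch that all of them share; in mir-690 the most frequent read is in capitals as well, and in mir-1195 the capitals mark the most frequent exact read on each side.
mir-3473a: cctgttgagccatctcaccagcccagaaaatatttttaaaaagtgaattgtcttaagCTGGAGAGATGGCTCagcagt
mir-3473e: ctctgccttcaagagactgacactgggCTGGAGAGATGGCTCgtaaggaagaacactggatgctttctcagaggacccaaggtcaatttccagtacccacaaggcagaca
mir-3473f: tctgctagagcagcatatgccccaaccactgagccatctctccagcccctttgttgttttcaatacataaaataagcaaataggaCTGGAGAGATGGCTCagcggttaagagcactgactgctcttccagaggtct
mir-690: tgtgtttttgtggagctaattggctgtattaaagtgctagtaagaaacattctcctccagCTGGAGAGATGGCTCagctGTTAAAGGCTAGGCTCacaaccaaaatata
mir-1195: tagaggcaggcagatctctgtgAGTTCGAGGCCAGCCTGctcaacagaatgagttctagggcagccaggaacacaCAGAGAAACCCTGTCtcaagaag
The stretch of 15 nt, which lies near the start of the B2 repeat, was found at base 58 of mir-3473a, base 28 of mir-3473e, base 86 of mir-3473f and base 61 of mir-690. mir-3473a shares 20 identical bases with mir-690, 18 with mir-3473f and 16 with mir-3473e, and mir-1195 shared no such stretch with the other 4. In mir-690 the most frequent read starts at base 80, past the shared stretch.

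The genes lie apart in the genome (GRCm38, by the GENCODE M21 annotation). Mir3473a is at chrX:162874918-162874995 on the minus strand, in an intron of Syap1. Mir3473e is at chr5:31667231-31667340, in an intron of Rbks, and Mir3473f at chr1:106546496-106546631, in an intron of Bcl2. Mir690 is at chr16:28599935-28600043, in an intron of Fgf12. These 4 have the strand of the host named. Mir3473e and Mir3473f also lie in introns of genes on the opposite strand, Gm43809 and D630008O14Rik. Mir1195, at chr17:70860503-70860600 on the minus strand, lies in an intron of the pseudogene Gm9320 on the opposite strand.

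The most frequent reads of the mir-3473 precursors and of mir-1195 were short pieces found in 45 to 2242 genes, whereas that of mir-690 was found in 22. The reads are given in capitals as deposited, with the number of the 55450 GENCODE genes that hold them in a transcript on either strand.
mir-3473a and mir-3473f: TGGAGAGATGGCTCAGC
mir-3473e: TGGAGAGATGGCTCG
mir-1195: CAGAGAAACCCTGTC
mir-690: GTTAAAGGCTAGGCTC
The lead read of mir-3473a and of mir-3473f was the same, with 5998 reads over the 12 libraries, and 546 genes held it. Its first 15 bases, themselves read 4422 times, were in 1307 genes. The lead read of mir-1195, with 304 reads, was in 2242 genes, which is 4.04% of all. That of mir-3473e, with 694 reads, was in 45 genes, while its second most frequent read, GGGCTGGAGAGATGGCT, was in 915. The lead read of mir-690, with 16013 reads, was in 22 genes, 14 of them annotated as miRNA genes. Transcripts, not the genome, were searched, so copies outside transcripts are not counted.

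Reads could therefore rarely be assigned to one of the B2-carrying mir-3473 precursors. Of the mir-3473a reads 86.9% also lay on mir-690 and 86.2% on mir-3473f, and of the mir-3473f reads 89.4% also lay on each of mir-3473a and mir-690. Reads on no other precursor made up 12.6% for mir-3473a, 7.89% for mir-3473f and 0.783% (17 reads) for mir-3473e, of which 64.3% also lay on mir-3473b. For mir-690 they made up 37.0%, and 62.9% of its reads also lay on a predicted precursor but only 7.16% on mir-3473a. In mir-1195, the B1 precursor, 92.1% of the reads lay on it alone and 7.44% also on mir-706. A single tag, that is a distinct read sequence, lay on up to 13 precursors, so the values of mir-3473a and mir-3473f below are largely the same reads counted under 2 names and are no replicates of each other.

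In each library, the share of reads that also lay on another precursor is given beside that of all other annotated precursors, where it was 1.65% ± 0.132 (SD, n = 12). It was 88.8% ± 6.21 for mir-3473a, 99.6% ± 0.690 for mir-3473e, 91.5% ± 5.66 for mir-3473f and 57.6% ± 11.6 for mir-690, each higher in 12 of 12 libraries. For mir-3473a, mir-3473e and mir-3473f, the repeat stretch that these 4 have in common favours this direction. For mir-690, 62.9% of the summed reads also lay on a predicted precursor and 7.16% on mir-3473a. Only 18167 of its 193201 reads start before base 75, so most of its shared reads start at that base or later. Why those reads are shared was not tested. The direction is a description, and no test is read from it for any of the 4. For mir-1195 the share was 5.82% ± 4.15, higher in 9 of 12 libraries.

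Levels, in RPM, were higher in Keluoxin for each of the 5 precursors, in the means. If the RNA came from bulk tissue, as the tissue label reads, more cells that hold an RNA and more of it per cell cannot be told apart. The extraction protocol names an exosome pellet instead, and the labels do not settle which was used. mir-690 was by far the most abundant. Its level in model was 420 at the lowest, 1280 at the median and 3846 at the highest, and in Keluoxin 3853, 4785 and 6655. The groups did not overlap, by a margin of a few RPM between model replicate 1 and Keluoxin replicate 5. The means were 1596 ± 1214 and 5004 ± 939 (SD, n = 6), a difference of 1.96 (SE 0.45) in log2 of the level plus 1.

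mir-3473a stood at 18.3, 38.5 and 349 RPM (lowest, median, highest) in model and at 180, 379 and 807 in Keluoxin, with a difference of 2.90 (SE 0.69) on the same log2 scale. mir-3473f stood at 21.7, 41.2 and 346 in model and at 198, 369 and 738 in Keluoxin, with a difference of 2.80 (SE 0.65). In both, 3 of the 6 Keluoxin libraries lay above every model library, and the overlap came from model replicate 1 alone. Reads that hold the whole stretch common to the 4 B2 precursors, 3165 over the 12 libraries, differed less. They stood at 46.1 ± 49.3 RPM in model and 71.4 ± 24.6 in Keluoxin (SD, n = 6). The highest library was model replicate 6, at 142, so no Keluoxin library lay above every model library. The lead reads of the mir-3473 precursors lack the first base of the stretch and are not among them. mir-3473e stood at 2.15, 8.78 and 37.9 in model and at 48.5, 58.8 and 84.7 in Keluoxin (difference 2.59, SE 0.57), with no overlap. mir-1195 stood at 1.39, 4.46 and 29.2 in model and at 22.9, 42.3 and 64.3 in Keluoxin (difference 2.63, SE 0.55), and 4 of the 6 Keluoxin libraries lay above every model library.

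**Figure D1:**
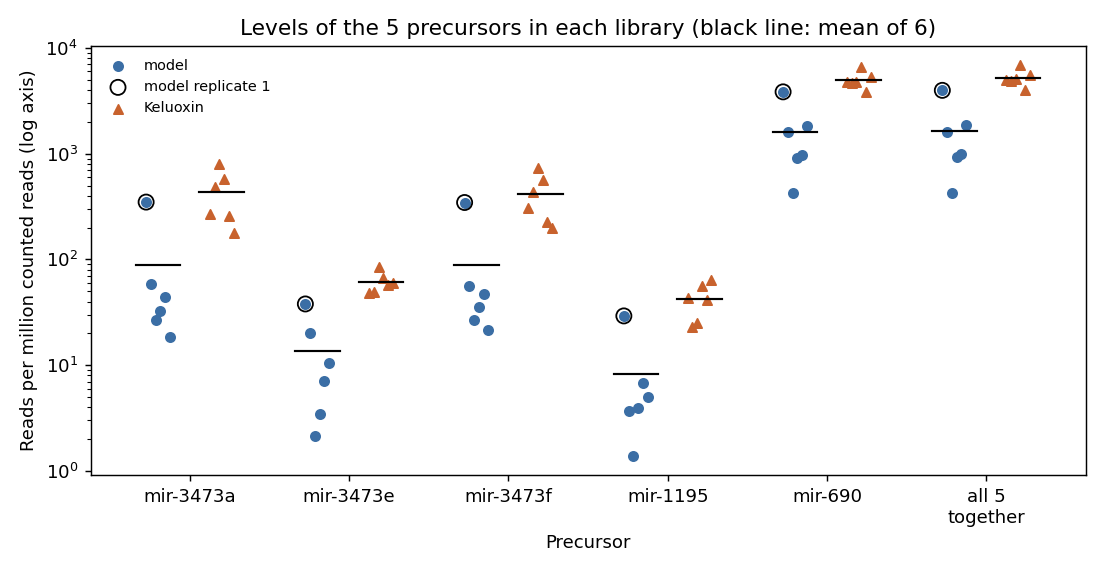
Levels of the 5 precursors, and of their distinct reads together, in RPM (log axis); each point is a library, circles model and triangles Keluoxin, 6 each, and the black line is the group mean. The ringed point, model replicate 1, is the highest model library for every precursor, at 349 for mir-3473a where the other 5 lie between 18.3 and 58.0.

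Model replicate 1 was the highest model library for all 5 precursors. Without it every Keluoxin library lay above every model library for each of them, and the differences were 3.46 (SE 0.44) for mir-3473a, 2.98 (SE 0.50) for mir-3473e, 3.34 (SE 0.39) for mir-3473f, 3.07 (SE 0.37) for mir-1195 and 2.28 (SE 0.39) for mir-690. How many other precursors separate the groups in this way was not counted, and the 5 were chosen by this contrast. Nothing is therefore read from the lack of overlap. In order of level, mir-690 was above the rest in every library. mir-3473a and mir-3473f, which share most reads, could not be ordered, and below them mir-3473e and mir-1195 overlapped in both groups.

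The Keluoxin libraries were not ordered alike by the 5 precursors. Keluoxin replicate 3 had the highest mir-3473a level, 807 RPM, and Keluoxin replicate 6 the lowest, 180. For mir-1195, Keluoxin replicate 6 was the highest, at 64.3, while Keluoxin replicate 3 stood at 25.2. mir-690 was highest in Keluoxin replicate 4, at 6655, and Keluoxin replicate 6 was second, at 5334. For mir-3473e, Keluoxin replicate 3 was again the highest, at 84.7, but Keluoxin replicate 1 the lowest.

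The comparison over all arms places these values. An arm is the 5p or 3p side of a precursor, and 833 arms passed edgeR's filter on low counts. Of them 143 were called between the groups by edgeR's quasi-likelihood test at a Benjamini-Hochberg adjusted p of 0.05. In Keluoxin 78 of these were higher and 65 lower, that is 17.2% in either direction and 9.36% higher. Of the called arms 54.5% were higher with TMM scaling, 76.9% with scaling to total counted reads and 36.6% with upper-quartile scaling, and under these the log2 fold change had a median over all arms of 0.04, 0.23 and −0.24. Among annotated arms 3.90% were called higher. Of the 10 arms of the 5 precursors 6 passed the filter, and 4 of these were called higher. The choice of the precursors rested on this contrast, so nothing is read from that count. The fitted log2 fold changes were 2.62 (SE 0.65) for mir-1195-3p, 2.07 (SE 0.56) for mir-3473e-5p, 2.13 (SE 0.68) for mir-3473f-3p and 1.495 (SE 0.39) for mir-690-3p. mir-3473a-3p, at 2.22 (SE 0.71), and mir-1195-5p, at 1.58 (SE 0.60), were not called. Without model replicate 4 none of the 6 arms was called, though the fold changes stayed at 1.39 (mir-690-3p) to 2.46 (mir-1195-3p). The calls over all arms were then 63 of 843, 30 of them higher. Without model replicate 5 only 1 of the 6 was called higher, beside 42 of 845 arms over all. Without Keluoxin replicate 6 it was 2, beside 38 of 847, and without model replicate 1 all 6, beside 160 of 856. Nothing is read from these counts of the 6 either.

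Reads on mir-690 had several 5′ ends, and these did not move together between the groups. The annotated mature miR-690 starts at base 83 of the precursor, whereas 50.1% of all reads on it started at base 80, 11.4% at base 83 and 10.4% at base 81. These sums are led by the Keluoxin libraries: base 80 was the most frequent start in all 6 of them and in model replicates 1 and 4, and base 83 in the other 4 model libraries, where it held 42.6% to 54.2%. The leading read from each of these ends, and from base 85, shows the shift; bases 2 to 8 are in capitals.
from base 80: gTTAAAGGctaggctc
from base 83: aAAGGCTAggctcacaacc
from base 85: aGGCTAGGctcacaac
The reads from base 83 have the seed of annotated miR-690, and those from base 80 have TTAAAGG in that place.

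Reads from base 80 stood at 80.7 RPM at the lowest, 288 at the median and 1810 at the highest in model, and at 2206, 2881 and 3430 in Keluoxin. Every Keluoxin library was above every model library, and without model replicate 1 the highest model library was at 329. The difference was 3.25 (SE 0.61) in log2 of the level plus 1, and 3.77 (SE 0.38) without model replicate 1. Reads from base 83 were not higher in Keluoxin. They stood at 172, 381 and 997 in model and at 86.4, 281 and 355 in Keluoxin, with overlapping groups and a difference of −0.87 (SE 0.55). Reads from base 85 stood at 36.5, 120 and 235 in model and at 52.6, 157 and 465.8 in Keluoxin (difference 0.39, SE 0.63), also overlapping.

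The ratio of reads from base 80 to reads from base 83 within a library does not depend on scaling. It was 5.56, 0.321, 0.451, 1.75, 0.402 and 0.330 in model replicates 1 to 6 and 9.33, 23.5, 31.0, 12.9, 6.22 and 9.80 in Keluoxin replicates 1 to 6. All 6 Keluoxin libraries were above all 6 model libraries, with model replicate 1 nearest to them and model replicate 4 next. Reads at base 83 made up 43.8% of the mir-690 reads in the median model library and 4.99% in the median Keluoxin library. This split by 5′ end was made after the levels had been seen, and the reads from base 80 are part of the level by which mir-690 was chosen. How many other precursors separate the groups by their 5′ ends was not counted. Nothing is therefore read from the lack of overlap in the levels, shares or ratio of these ends.

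**Figure D2:**
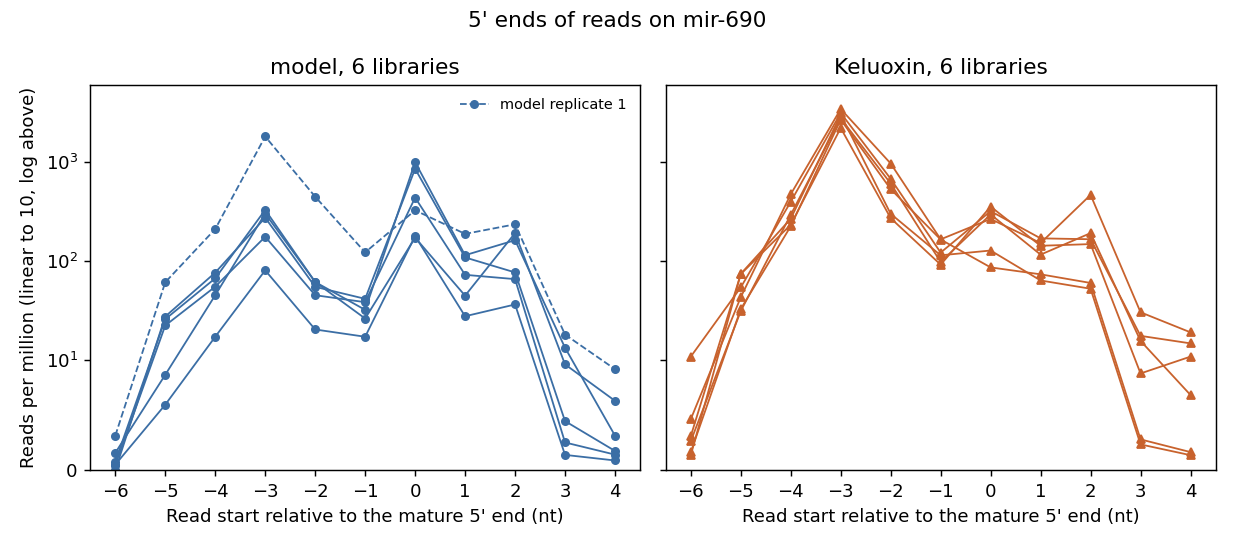
Level of mir-690 reads by the position of their 5′ end relative to the annotated mature 5′ end (0), in RPM (linear to 10, log above); each line is a library, 6 model at left and 6 Keluoxin at right. At −3 the Keluoxin libraries lie between 2206 and 3430 and the model libraries between 80.7 and 1810 (the dashed line, model replicate 1, is the highest), while at 0 the groups overlap.

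The ends also differed in length. From base 83, reads of 19 nt were the most frequent, 44.8% of those reads in model and 50.5% in Keluoxin. From base 80, reads of 16 nt were the most frequent, with 27.7% and 30.1%. The share of reads of 15 to 17 nt among those from base 80 was 19.7% to 55.2% in the model libraries and 39.7% to 71.1% in the Keluoxin libraries, with overlap. Those from base 83 held 10.3% to 23.8% and 14.2% to 22.6% of such reads.

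The part of mir-690 counted as reads that start before base 75, mostly in the shared B2 stretch, was small. It held 18167 of 193201 reads, and stood at 98.2 ± 143 RPM in model and 495 ± 267 in Keluoxin (SD, n = 6), close to the mir-3473a level with which it shares reads. Reads from base 75 onward stood at 1498 ± 1086 and 4509 ± 918. No repeat annotation was used, so only these 18167 reads tie mir-690 to the B2 repeat here, through the shared stretch.

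Reads on the other precursors began at or away from the annotated miRNA to different degrees. On mir-3473a, 86.8% began at the mature 5′ end, and 1654 reads equalled the annotated miRNA. On mir-3473f no read began there: 82.1% began 10 nt downstream, at the shared B2 stretch. On mir-1195, 1.84% (26 reads) began at the mature 5′ end and 55.1% began 55 nt downstream, on the other side of the precursor. On mir-3473e, 52.3% began at the mature 5′ end and 34.2% began 4 bases later, at base 29, where the lead read starts. No read equalled the annotated miR-3473e, miR-3473f or miR-1195, and 859 equalled miR-690.

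**Figure D3:**
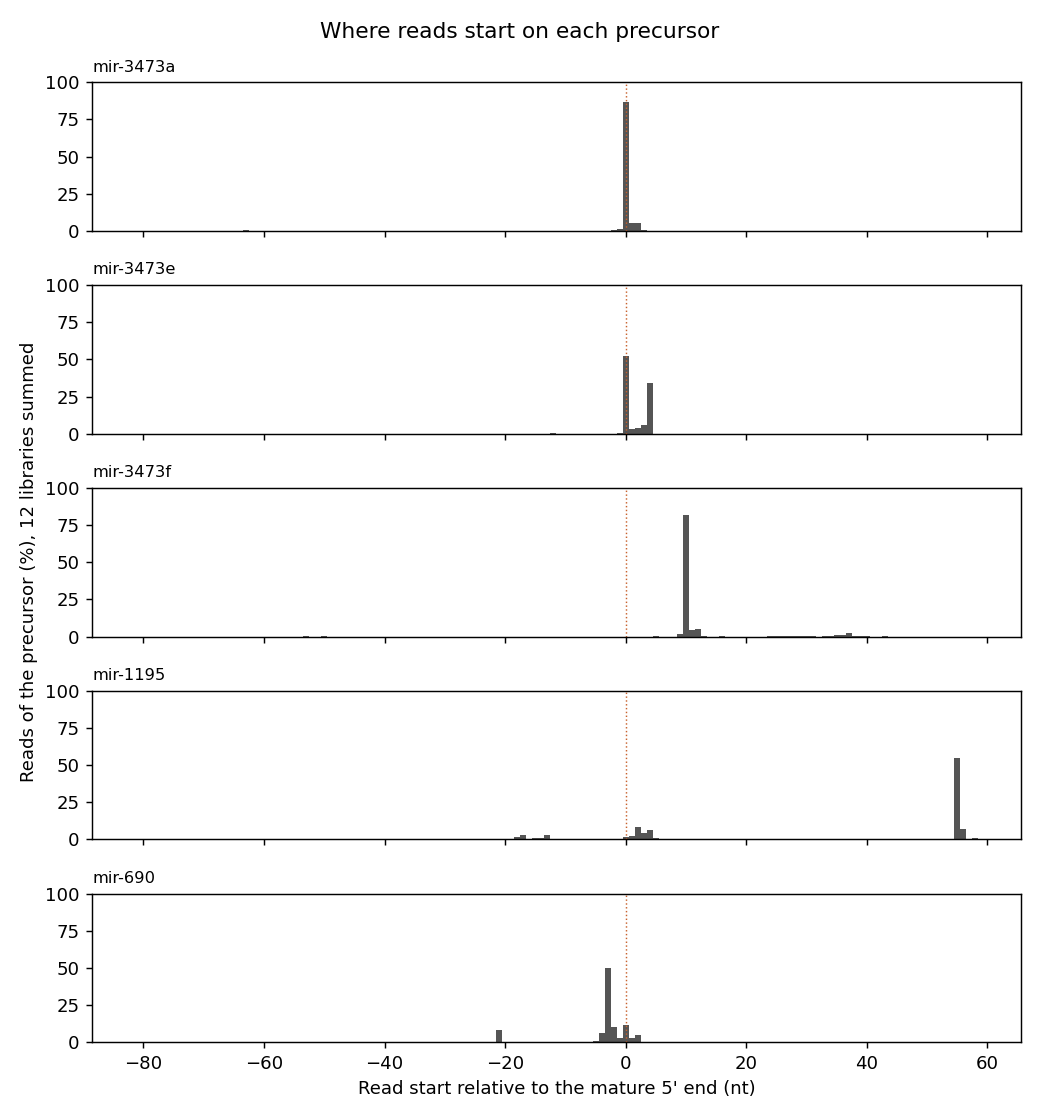
Share of the reads of each precursor (percent, 12 libraries summed) by the position of their 5′ end relative to the annotated mature 5′ end, marked by the dotted line. The main bar is at 0 for mir-3473a and mir-3473e, at 10 for mir-3473f, at 55 for mir-1195 and at −3 for mir-690.

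Within mir-3473e the 2 ends had different ranges. Reads from base 25 stood at 7.84 ± 6.52 RPM in model and 32.9 ± 10.9 in Keluoxin, with every Keluoxin library above every model library. Reads from base 29 stood at 2.97 ± 5.42 and 20.997 ± 16.6, with 4 of 6 Keluoxin libraries above every model library and model replicate 1, at 14.01, far above the other 5, at 0.315 to 1.28. Within mir-1195, reads that start before base 50, where the annotated miRNA lies, stood at 4.08 ± 4.65 and 13.8 ± 8.87, and those from base 50 onward at 4.25 ± 5.82 and 28.4 ± 9.85.

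A processed miRNA gives reads with a nearly fixed 5′ end. For each precursor the most frequent start over the 12 libraries together was taken, and the share of reads at it was computed per library (precursors with at least 10 reads in the library, weighted by reads). It was 91.3% ± 0.596 over other annotated precursors (SD, n = 12). It was 87.0% ± 4.18 for mir-3473a, 58.0% ± 22.9 for mir-3473e, 79.3% ± 8.68 for mir-3473f, 52.1% ± 13.6 for mir-1195 and 41.6% ± 19.0 for mir-690. All but mir-3473a were lower in 12 of 12 libraries (exact permutation adjusted p = 0.000558). Here and in the tests below, p measures only whether the gap from the pooled reads of the other precursors recurs between libraries. Precursors with many reads weigh most in that pool. The spread between single other precursors was not computed, so the tests do not show that a precursor is unusual among them. mir-3473a was lower in 10 of 12 (exact permutation adjusted p = 0.00611), and did not pass when predicted precursors joined the comparison (difference −2.30 percentage points, exact permutation adjusted p = 0.0571).

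The leading start was not the same in every library for mir-690 and mir-3473e. With the most frequent start of each library in its place, a choice added after the data were seen, the share was 51.8% ± 8.598 for mir-690 and 62.4% ± 18.9 for mir-3473e, still lower than the other annotated precursors in 12 of 12 libraries (exact permutation adjusted p = 0.000558). By that measure mir-690 stood at 33.2% to 54.2% in model and 51.5% to 65.1% in Keluoxin, with overlap. mir-3473e stood at 27.3% to 87.5% and 52.4% to 74.1%, and mir-1195 at 34.8% to 57.9% and 46.96% to 82.5%, both with overlap. The share of mir-690 reads from base 80 was 17.2% to 47.1% in model and 51.5% to 65.1% in Keluoxin, without overlap. As above, nothing is read from that lack of overlap.

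Reads on the 5 were also shorter than those on other annotated precursors. Reads of 21 to 23 nt, the usual length of a mature miRNA, made up 74.7% ± 1.57 of the reads on other annotated precursors. They made up 18.1% ± 4.87 for mir-690, 1.30% ± 1.71 for mir-1195, 0.201% ± 0.253 for mir-3473f and 0.00833% ± 0.0198 for mir-3473a, and mir-3473e had none (0 of 2170 reads). All were lower in 12 of 12 libraries, for mir-690, mir-1195 and mir-3473e with an exact permutation adjusted p = 0.000558. The annotated miR-3473a, of 18 nt, and miR-3473f, of 20 nt, are themselves shorter than this window. On mir-3473a, 86.8% of the reads also start at base 59 of a precursor of 78. No test is therefore read for these 2. Reads of 15 to 17 nt made up 88.1% of the summed mir-3473a reads, 86.1% for mir-3473e, 94.5% for mir-3473f, 89.4% for mir-1195 and 52.0% for mir-690. The libraries were cut to inserts of 15 to 35 nt, so shorter pieces would not have been counted. Short lead reads also occurred outside the 5: for 17 other annotated arms whose most frequent exact read is held by at least 100 genes, that read was 15 to 18 nt long. Short reads match more genes, so this choice of arms favours them. It gives the length of 1 read per arm and no share of reads.

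**Figure D4:**
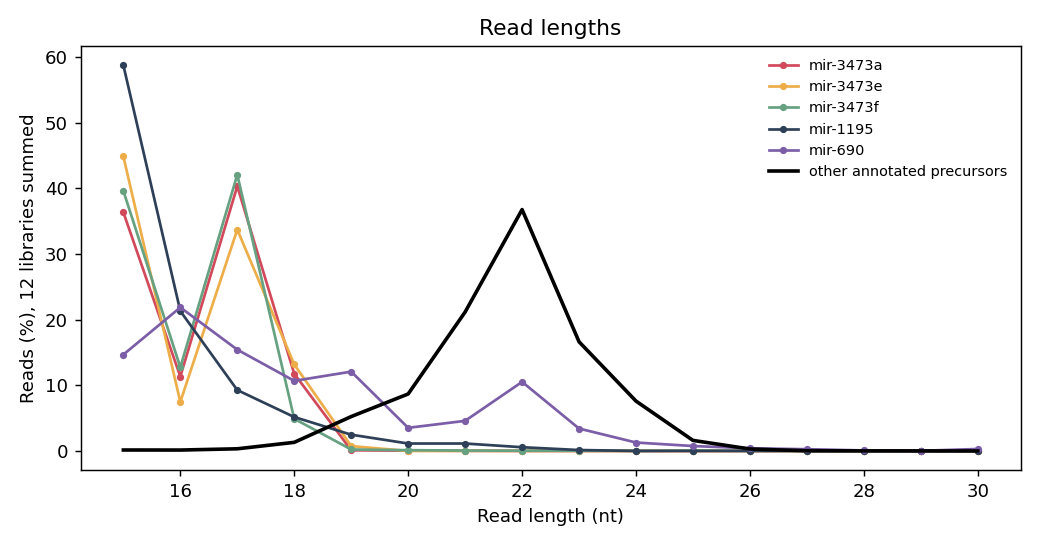
Read length (nt) against the percent of reads, 12 libraries summed, for the 5 precursors (coloured lines with points) and for all other annotated precursors (black line). The other annotated precursors peak at 22 nt, mir-3473a and mir-3473f peak at 17 nt, mir-3473e and mir-1195 at 15 nt, and mir-690 at 16 nt with smaller peaks at 19 and 22 nt.

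The share of reads with a base that differs from the precursor split the 5. It was 43.1% ± 4.66 over other annotated precursors (SD, n = 12), and in the summed reads 75.9% of these differing reads differed at the last base. It was 3.18% ± 2.08 for mir-3473a, 13.7% ± 6.27 for mir-3473e, 7.86% ± 4.46 for mir-3473f and 31.5% ± 5.62 for mir-690, lower in 12 of 12 libraries (exact permutation adjusted p = 0.000558). In mir-1195 it was 54.5% ± 7.47, higher in 11 of 12 libraries (exact permutation adjusted p = 0.00107). That direction turned when each distinct tag counted once, to −16.0 percentage points (exact permutation adjusted p = 0.00223). Between the groups, the share for mir-690 was 25.1% to 30.1% in model and 30.03% to 40.9% in Keluoxin, a mean difference of 8.66 percentage points. Over the other annotated precursors the means differed by 7.99 points in the same direction.

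Most differing reads of the mir-3473 precursors and of mir-1195 were also exact copies of transcript sequence elsewhere. Of the differing reads, 98.8% for mir-3473a, 89.6% for mir-3473e, 96.8% for mir-3473f and 99.8% for mir-1195 were found without a difference in a GENCODE transcript, and 47.3% for mir-690, against 0.132% over other annotated precursors. Short reads match by chance more often. Among differing reads of 15 to 17 nt the share was 17.8% over other annotated precursors. It was 36.4% for mir-690 and 89.2% to 100% for the other 4. The number of genes varied widely between reads. The most frequent differing mir-1195 read, with 151 reads, was in 79 genes, and the second, with 54 reads, was in 26. The mir-1195 read named next had only 38 reads and is an example with many copies. A frequent mir-1195 read, TTCGAGGCCAGCCTGG, differs from the precursor at its own last base (16C>G, counted from the 5′ end of the read, precursor base first) and was in 1260 genes. A frequent mir-690 read, GTTAAAGGCTAGGCTT (16C>T), with 7947 reads, was in 0 of the 55450 genes. Of the mir-690 differences at the last base, 52.6% were to T, against 29.6% over other annotated precursors. That share was 54.3% for mir-3473f, 33.3% for mir-1195, 22.2% for mir-3473a and 0% for mir-3473e. For mir-3473a it rests on few reads, since only 1.24% of its 726 differing reads differed at the last base.

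**Figure D5:**
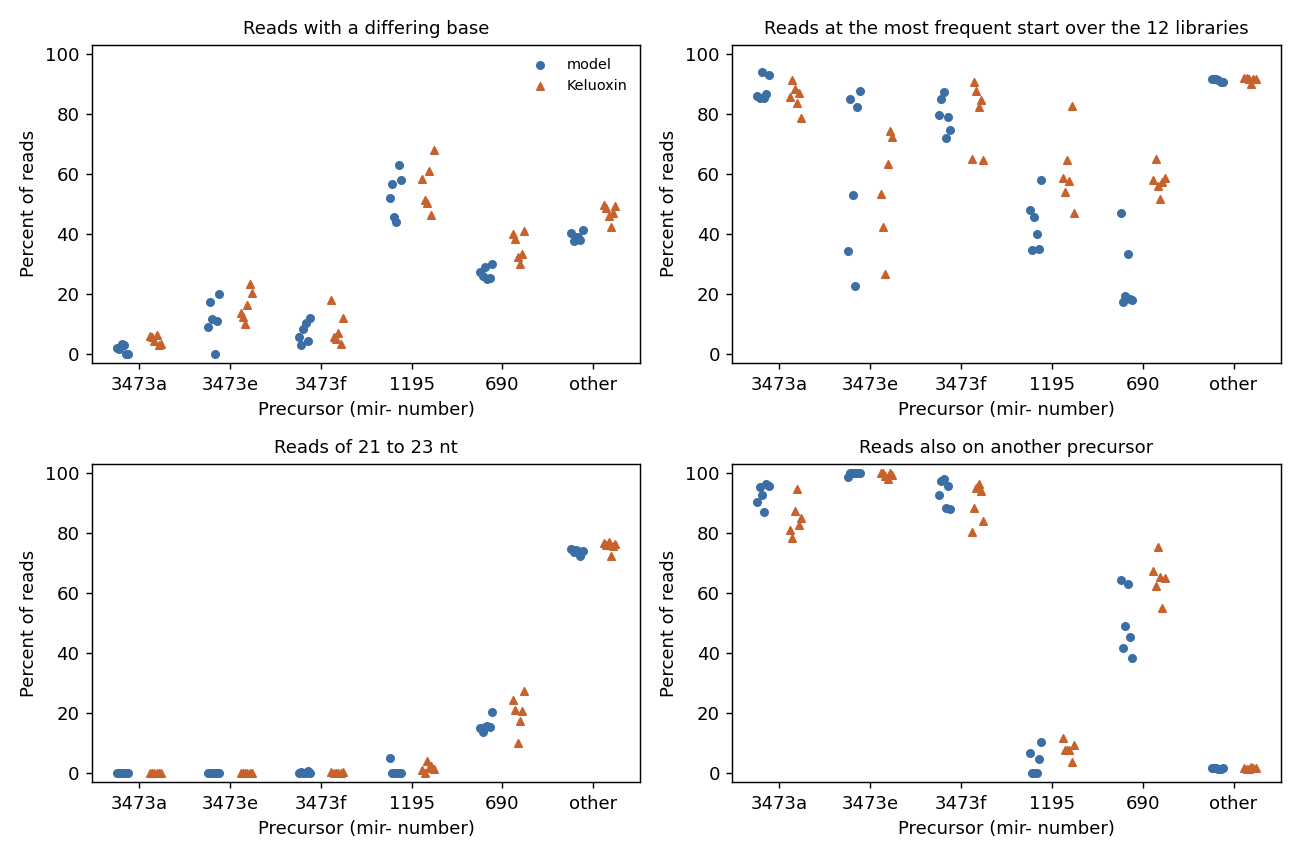
Percent of reads with a differing base, at the most frequent start, of 21 to 23 nt, and also on another precursor, for the 5 precursors and all other annotated ones ("other"); each point is a library, circles model and triangles Keluoxin. The 5 precursors sit below the others in reads of 21 to 23 nt in every library, and the start plotted is the most frequent over all 12 libraries, for mir-690 base 80, where the groups are separate at 17.2% to 47.1% against 51.5% to 65.1%.

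Related precursors outside the 5 shared reads with them to very different degrees. Of the 5 other mir-3473 names, 4 were seen and 1 arm passed the filter: mir-3473b-3p, with a fitted log2 fold change of 1.70 and not called, beside a median of 0.04 over all arms. mir-3473b stood at 66.01 ± 68.5 RPM in model and 230.9 ± 93.7 in Keluoxin, and 82.8% of its reads also lay on one of the 5. Of 14 annotated precursors that shared a tag with the 5, 6 arms passed the filter, of which 1 was called higher and 1 lower, with a median of 1.52. The most abundant of them, besides mir-3473b, were mir-6413, at 48.5 ± 69.0 and 191 ± 120, with 81.4% of its reads on one of the 5, and mir-1981, at 52.5 ± 8.48 and 28.97 ± 9.78, with 0.976%.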

How the data were processed

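Small RNA libraries were made from 1 µg of total RNA and cut to inserts of 15 to 35 nt, per the labels' protocols. Tools named, per the submitters' processing notes, were bcl2fastq, cutadapt, Bowtie and Novoalign; the sources used here give no versions, genome build or miRBase release. The deposited counts are whole reads per distinct sequence and precursor, not normalized, for sequences with at least 2 reads, per the file headers and values. Where a sequence lay on several precursors the authors divided its count among them. The undivided number in the tag name was used here, once per precursor. Deposited lengths, positions (with 5 added) and marks of differing bases are unnormalized, per the file headers.

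Levels are RPM, reads scaled to the total of counted reads in a library, compared as log2 of the level plus 1. Arms were fitted with edgeR 4.0.16 (TMM, its low-count filter, quasi-likelihood test, Benjamini-Hochberg 0.05) in R 4.3.3, with DESeq2 1.42.0 as an alternative. Shares were compared by exact two-sided sign-flip tests over 12 libraries (4096 sign assignments), adjusted over 24 tests. Scripts were tested on simulated data. In simulated counts for the 833 arms, edgeR recovered 2.99% of 1.5-fold, 34.3% of 2-fold and 86.4% of 4-fold changes. An arm not called is therefore not shown to be unchanged. Transcripts were GENCODE M21, and miRNA sequences RefSeq, where all 5 names matched. BLAST+ 2.17.0, Python 3.11.15, pandas 2.3.3 and NumPy 2.4.6 were used. The members, lists and tests were chosen with earlier results of these data known. Named beside the 5 precursors are the 3 most abundant relatives of each list and the 5 annotated arms without shared tags that correlated best. A planned list by genome copies was not made; genes with a copy in their transcripts were counted instead. Replicates were not copies of each other: the closest 2 libraries differed by a chi-square of 83.3 per degree of freedom.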

Additional observations from a re-analysis of the deposited data

Results flagged for a closer look

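In groups of 6, a library was marked when its gap to the nearest other, over the range of the group, passed Dixon's limit; 7 of 60 groups tested had such a library, where chance marks about 1 in 20, and the 60 share reads. Model replicate 1 stood apart from the other model libraries in the level of mir-3473a (348.7 RPM), of mir-3473f (345.5) and of mir-1195 (29.2). It also stood apart in the share of mir-3473e reads on another precursor, 98.7% against 100% in the other 5, and in the share of mir-1195 reads of 21 to 23 nt, 4.96% against 0 in the other 5, which hold at most 43 mir-1195 reads each. Model replicate 6 stood apart in the share of reads of 21 to 23 nt, with 20.3% for mir-690 and 20.1% for the 5 together.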

How the results depend on the processing

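No difference in level reversed under any alternative run for the 5 precursors: tags without a differing base, tags on no other precursor, division of shared reads as deposited, TMM scaling, a common minimum level per tag (chosen after seeing the data) and leaving out each library. mir-3473e fell to a difference of 0.34 when only tags on no other precursor were counted, of which there were 17 reads. The count of called arms, 143, was 242 of 1274 with DESeq2 and its own filter, 68 with annotated precursors only, and 63 to 246 when 1 library was left out (246 without model replicate 1, 63 without model replicate 4, 73 without Keluoxin replicate 6, 81 without model replicate 5, 90 without model replicate 3). The cause was not tested. With the replicate number as a block 96 arms were called. The numbers did not pair the samples (correlations of deviations 0.0133 to 0.245, and 2 of 12 samples closest to their own number). Of the comparisons with other annotated precursors, counting each distinct tag once turned the differing share of mir-1195 to −16.0 points and left its tag sharing at 2.44 points, and adding predicted precursors left the start share of mir-3473a at −2.30. The cause was not tested. The shallowest library reports no tag below 1.03 RPM, which limits mir-1195 and mir-3473e most.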

Other observations

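Among annotated arms that shared no tag with the 5 precursors, those whose log2 level followed the sum of the 5 most closely over the 12 libraries were mir-1954-3p (Pearson r = 0.967), mir-5098-3p (0.950), mir-3470b-5p (0.939), mir-3470a-5p (0.934) and mir-696-3p (0.908). These values describe libraries that fall into 2 groups and share their scaling: within the 6 model libraries r was 0.883 to 0.939, and within the 6 Keluoxin libraries it was −0.617 to −0.00361. In CPM, the model and Keluoxin means of mir-3470b-5p were 76.1 ± 100 and 247 ± 68.9 (SD, n = 6), and those of mir-5098-3p were 54.05 ± 67.0 and 179 ± 40.6; none of the 5 arms was called by edgeR. Of the 50 arms of highest r among 782 compared, 40 were of predicted precursors, which made up 281 of the 782.

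The lead reads of other annotated arms were also searched in GENCODE transcripts, a description added after the data were seen. Outside the 5 precursors, 17 tested annotated arms had a most frequent exact read held by at least 100 genes, from 134 for mir-1934-3p to 2329 for mir-706-5p. Their fitted log2 fold changes were above 0 in 17 of 17, with a median of 1.79, and edgeR called 3 higher and 0 lower. The 486 annotated arms whose lead read fewer genes held had a median of −0.13, with 13 called higher and 45 lower; 4 further arms had no exact read to search, 1 of them (mir-3108-3p) called lower. Of the 17 arms 13 shared no tag with the 5, with a median of 1.79. Several stood near 1 CPM in model, and the filter also keeps an arm that only 1 group brings over the limit, so these counts give no support to a difference between the sets. The arms mir-466q-5p, mir-466k-5p and mir-466i-3p had the same lead read. The most abundant of the 17 were mir-3470b-5p, mir-3473b-3p, mir-5098-3p and mir-6413-3p, none of them called.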
